A study of Mus musculus with 4 samples.

Results

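The cells described here were labelled as tumour cells of the 4T1 mouse mammary carcinoma that carried keratin transcripts and no transcript of Epcam or Cldn4. They were chosen from a single-cell RNA sequencing matrix in which each transcript molecule is counted by a unique molecular identifier (UMI). A barcode was taken when it held at least 300 genes, at least 5000 UMIs and at most 15% mitochondrial UMIs, when Krt8 and Krt18 together made up at least 0.2% of its UMIs, and when it held no UMI of Epcam, Cldn4 or the leucocyte gene Ptprc. It also had to hold under 5 UMIs of the cycling genes Top2a and Mki67, under 0.3% of C1qa, C1qb and C1qc and under 0.5% of Col1a1, Col1a2 and Col3a1. This gave 82 cells of 33064 barcodes, 78 of them in library 1, 4 in library 2 and 0 in libraries 3 and 4. Tumour markers outside the choice are given below, and they were mixed for the 4 cells of library 2. The 82 cells are called low cells in what follows, and the 2550 cells that met every other limit but held Epcam or Cldn4 (2473 in library 1, 77 in library 2) are called positive cells. All values of the chosen genes describe the choice and are no findings.

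The tumours grew from 1000000 4T1 cells placed in the right flank of female BALB/c mice of 6 to 8 weeks of age, so tumour cells and host cells come from different sources and the tumour cells are those of a single cell line. All mice were injected through a vein on day 7 and lit with near-infrared light of 980 nm at 1.0 W cm-2 for 5 min on each of the days 8, 9 and 10, before the tumours were taken on day 13. By the labels 2 samples received PBS and 1 received TIOs (TIOs+NIR), macrophage-derived carriers loaded with the lipid peroxidation inducer RSL3 and the photosensitiser Ce6, while for the last sample the injection in the protocol is not the one in its title, so it was put in no group. The matrix tells 4 libraries apart by the barcode suffix but does not link a library to a sample, so no treatment was compared, low and positive cells were compared within a library, and no p-value was computed. All intervals are exact 95% intervals (Poisson for levels, Clopper-Pearson for shares), and they cover counting error only, not differences between mice. The Poisson intervals are of summed UMIs and leave out the spread between cells as well, so they are too narrow where a few cells hold many UMIs.

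Epcam is a surface adhesion protein of epithelial cells and Cldn4 (claudin 4) is a sealing protein of their tight junctions. Carcinoma cells can lose such epithelial genes and gain Vim (vimentin), Fn1 and other mesenchymal genes, a shift called the epithelial-mesenchymal transition (EMT), which is driven by transcription factors of the Snai, Zeb and Twist families and is often incomplete, with keratins kept beside vimentin. The 4T1 line is known as a metastatic model of breast cancer. Of the genes given as markers of the low cells, Krt8 and Krt18 encode the paired keratins of simple epithelia, Serpine2 encodes the secreted protease inhibitor nexin-1, and Tns4 encodes tensin 4, a focal adhesion protein of epithelial cells.

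The start regions of both genes of the choice are shown because they hold E-boxes of the kind that the Snai and Zeb repressors bind, and that of Serpine2 because it is the only given marker that differs from other tumour cells below. The windows are RefSeq promoters of build GRCm38.p6, from 250 bases before to 50 bases after the start, on the strand of the gene. They are chr17:87635729-87636028 (+ strand) for Epcam, chr5:134946885-134947184 (- strand) for Cldn4 and chr1:79858616-79858915 (- strand) for Serpine2. Capitals mark CACCTG and its reverse complement CAGGTG, the 6 letters searched on both strands.
Epcam: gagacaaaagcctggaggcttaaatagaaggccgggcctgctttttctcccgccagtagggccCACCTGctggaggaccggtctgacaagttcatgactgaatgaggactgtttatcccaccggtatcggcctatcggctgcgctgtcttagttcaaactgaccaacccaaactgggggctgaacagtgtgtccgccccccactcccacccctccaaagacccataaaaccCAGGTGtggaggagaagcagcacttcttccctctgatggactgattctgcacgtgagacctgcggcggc
Cldn4: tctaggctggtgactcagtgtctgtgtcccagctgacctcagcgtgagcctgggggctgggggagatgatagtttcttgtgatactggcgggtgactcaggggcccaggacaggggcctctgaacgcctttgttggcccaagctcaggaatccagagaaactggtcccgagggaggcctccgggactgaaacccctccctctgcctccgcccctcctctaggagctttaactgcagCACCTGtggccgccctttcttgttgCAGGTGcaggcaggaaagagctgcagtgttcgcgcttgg
Serpine2: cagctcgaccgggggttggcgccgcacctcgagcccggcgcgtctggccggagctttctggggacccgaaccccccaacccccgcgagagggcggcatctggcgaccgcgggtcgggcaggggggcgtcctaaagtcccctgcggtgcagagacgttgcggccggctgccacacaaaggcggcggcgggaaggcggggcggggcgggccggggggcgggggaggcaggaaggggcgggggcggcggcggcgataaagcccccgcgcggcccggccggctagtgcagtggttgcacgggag
Counted from the start site, the motif begins at -187 and -19 in Epcam and at -14 and 12 in Cldn4, and it is not in the Serpine2 window. It also stands in Krt8, at -111, and Krt18, at -214. A match is a description of the letters and not evidence of binding.

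The limits removed cells unevenly. The sources describe a sort for CD45, the protein of Ptprc, yet 3532 barcodes of library 1 passed the keratin limit out of 5371 with 5000 UMIs and more, against 135 of 3194 in library 2, 0 of 2444 in library 3 and 0 of 5496 in library 4. Without Ptprc 2992 barcodes of library 1 remained, the C1q and collagen limits left 2977, and the cycling limit left 2551. The absence of Epcam reduced these to 126 and the absence of Cldn4 to 78. The 78 low cells held 967751 UMIs in all, with a median of 11979 per cell (5074 to 31212) and 3340.5 genes, whereas the positive cells of library 1 held a median of 18371 UMIs and 4112 genes. Mitochondrial shares were close, at medians of 1.83% and 1.87%. The keratin share of the low cells ran from 0.202% to 2.14% with a median of 0.413%, against 0.567% in the positive cells. Of all barcode sequences, 101 occurred in more than 1 library, and 1 low cell was among them.

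How often a tumour cell counted as low varied with how many of its molecules were read. Of the non-cycling keratin cells of library 1, 3.06% (2.42 to 3.80%, 78 of 2551) held neither Epcam nor Cldn4. The share was 10.1% (7.01 to 14.0%, 32 of 317) at 5000 to under 10000 UMIs, 3.27% (2.34 to 4.45%, 39 of 1192) at 10000 to under 20000 UMIs and 0.672% (0.271 to 1.38%, 7 of 1042) at 20000 UMIs and more, and these intervals do not overlap. Cycling keratin cells, which are deeper (median 31577 UMIs), gave 1.64% (0.663 to 3.36%, 7 of 426), and library 2 gave 4.94% (1.36 to 12.2%, 4 of 81). As a background, Ptprc-positive cells of library 1, which should lack both genes, held Epcam at 71.9 counts per 1000000 UMIs (CPM) and Cldn4 at 28.6 CPM. No gap in these counts set the low cells apart, since 110 cells of the same limits in library 1 held 1 UMI of Epcam or Cldn4 and 111 held 2. The part of depth in the choice cannot be told apart from the part of expression.

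**Figure D1:**
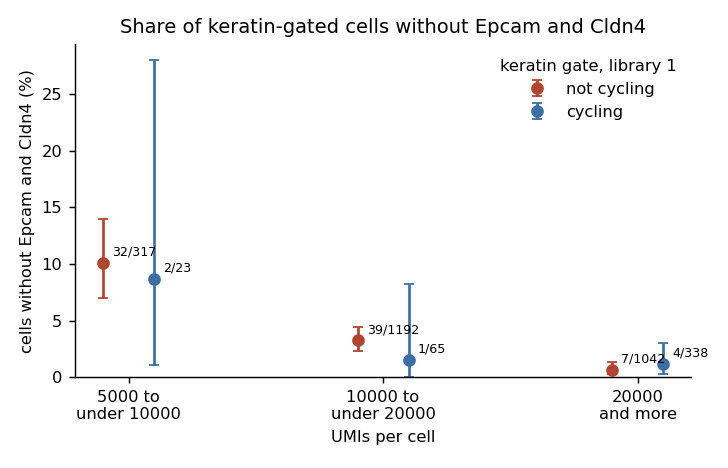
Share of keratin-gated cells of library 1 without a UMI of Epcam and Cldn4 (%), by UMIs per cell, for non-cycling cells (red) and cycling cells (blue), with exact 95% binomial intervals and the counts beside each point. The share of non-cycling cells was lower at each deeper step, from 10.1% to 0.672%.

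The label of tumour cells held for the 78 low cells of library 1. Tns4, which the choice did not use, stood at 123 CPM (102 to 147) in the low cells and 130.5 CPM (127 to 134) in the positive cells, against 8.43 CPM in collagen-high cells and 29.3 CPM in Ptprc-positive cells. Wfdc2, a secreted protein of glandular epithelium, was at 1316 CPM in the low cells and higher, at 2288 CPM, in the positive cells. It was at 184 CPM in collagen-high and 227 CPM in Ptprc-positive cells. Gata3, a transcription factor of the mammary luminal lineage, was at 99.2 CPM against 8.43 and 16.7 CPM. Xist, the RNA of the inactive X chromosome and here named after its values were seen, came to 3 UMIs in all low cells or 3.10 CPM (0.639 to 9.06), and stood at 8.00 CPM in positive cells, 419 CPM in collagen-high cells and 457 CPM in Ptprc-positive cells.

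Markers of other cell types were summed list by list and set beside the positive cells. The 12 fibroblast markers summed to 103 CPM in low and 105 CPM in positive cells against 15347 CPM in collagen-high cells, with Col6a1 the most abundant at 35.1 CPM and 3 of the 12 at 0 UMIs. The 12 macrophage and monocyte markers summed to 405 and 454 CPM against 19558 CPM in Ptprc-positive cells, led by Apoe at 157 CPM. The 8 neutrophil markers summed to 204 and 248 CPM against 3441 CPM, led by S100a9 at 103 CPM, with 2 at 0. The 10 T and NK cell markers summed to 14.5 and 15.4 CPM against 543 CPM. The endothelial list came to 87.8 and 93.9 CPM, led by Eng at 47.5 CPM, with Pecam1 at 0 UMIs. The pericyte and smooth muscle list came to 2.07 and 14.0 CPM, with 8 of 10 genes at 0. The keratinocyte list came to 255 and 410 CPM, led by Sfn, which tumour epithelium also expresses, and the red cell list to 3.10 and 7.32 CPM. No list of another cell type was thus higher in the low cells of library 1 than in the positive cells. Both classes had to pass the Ptprc, C1q and collagen limits, which hold down leucocyte and fibroblast lists, so these sums do not test the label. None of the 78 cells was among the highest 5% of doublet scores, where only 65 of all 2551 non-cycling keratin cells of library 1 stood.

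Levels were compared gene by gene in library 1, the only library with at least 50 cells on each side. Each level is the sum of a gene's UMIs over a class per 1000000 UMIs of that class, and a gene counted as different when the ratio, after adding 10 CPM to each side, was at least 2-fold. Of 2922 genes at 50 CPM or more in either class, 5 were higher in the low cells (0.171% of the genes tested) and 37 were lower (1.27%), while the median log2 ratio over all 2922 genes was 0.0020. Of these genes 230 reached 50 CPM in the positive cells alone and 201 in the low cells alone, and a gene that enters through 1 class tends to differ. Of the 37 lower genes 25 entered through the positive cells alone, and of the 5 higher genes 3 through the low cells alone. The counts and medians of gene lists below describe the listed genes that passed this limit and support nothing by themselves, and the lists do not hold every gene of their kind.

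**Figure D2:**
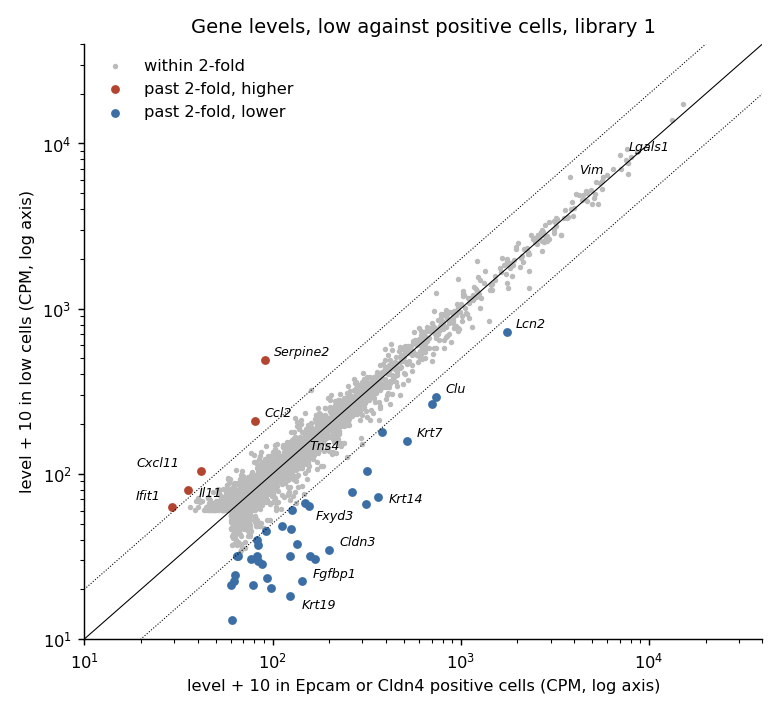
Level of each of the 2922 genes in the 78 low cells (vertical axis) and the 2473 positive cells (horizontal axis) of library 1, in CPM with 10 CPM added, on log axes; the solid line marks equal levels and the dotted lines a 2-fold ratio. Most genes lie on the solid line, 37 genes (blue) fall below the lower dotted line and 5 (red), led by Serpine2, lie above the upper line.

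Of the 24 genes of the epithelial junction list 10 were at 50 CPM or more in either class, and 6 of these were lower and 0 higher, with a median log2 ratio of -1.09. Of these 10 genes 6 passed the limit through the positive cells alone, among them 5 of the 6 lower genes. Cldn3, a tight junction claudin, was at 24.8 CPM (15.9 to 36.9) in low cells against 189 CPM (185 to 193) in positive cells, a log2 ratio of -2.52. Cldn7 was at 21.7 CPM against 113 CPM (log2 ratio -1.96). Cdh1 (E-cadherin), the adherens junction cadherin, was at 21.7 CPM (13.4 to 33.2) against 54.8 CPM (52.7 to 56.9), a ratio of 2.04-fold that lies at the limit. Jup (plakoglobin) and Perp of the desmosome were at 19.6 against 73.3 CPM and 56.8 against 138.5 CPM. The remaining 4 genes were within 2-fold, with Lsr of the tricellular junction at 73.4 against 83.1 CPM and the scaffold Tjp1 (ZO-1) at 50.6 against 38.5 CPM, so the junction genes did not stand at a common ratio. Ptprc-positive cells of the library held Cdh1 at 22.0 CPM and Jup at 19.3 CPM, within the intervals of the low cells, so neither gene stood above the Ptprc-positive cells in the low cells, whereas Cldn3 and Cldn7 were at 11.05 and 7.59 CPM there.

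Of the regulators of the epithelial state 5 genes were at 50 CPM or more, 2 of them in the positive cells alone. All 5 had a ratio below 1 and 1 passed 2-fold, with a median log2 ratio of -0.65. That gene was Rab25, a small GTPase of epithelial vesicle recycling, at 18.6 CPM against 77.8 CPM, and 9 of its 18 UMIs came from 1 cell. Klf5, an epithelial transcription factor, was at 57.9 against 96.4 CPM, and the protease inhibitors Spint1 and Spint2 were at 37.2 against 62.3 CPM and 262 against 356 CPM. The splicing factor Esrp1 and the transcription factor Grhl2 lay under 50 CPM in each class, at 13.4 against 27.8 CPM and 8.27 against 15.1 CPM.

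Of a list of 18 other keratins and mammary lineage genes 6 were at 50 CPM or more, of which 4 were lower, with a median log2 ratio of -1.49. Krt19 passed the limit through the positive cells alone and the other lower genes through both classes. Krt19, a keratin of glandular epithelium, was at 8.27 CPM (3.57 to 16.3, 8 UMIs in 78 cells) against 114 CPM (111 to 117), a log2 ratio of -2.77. Its level in Ptprc-positive cells, 5.80 CPM, lies inside the interval of the low cells. Krt14, a basal keratin, was at 62.0 against 353 CPM, but Ptprc-positive cells held it at 208 CPM, above the low cells. Krt7 was at 149 CPM (126 to 175) against 509 CPM (503 to 515) and was uneven, with 35 cells at 0 and 31 of 144 UMIs in 1 cell. Lcn2 (lipocalin 2), a secreted iron-carrier binding protein, was at 716 against 1751 CPM, with a median cell of 246 CPM (0 to 8033) against 843 CPM. The genes of the choice, Krt8 and Krt18, were at 1823 against 2469 CPM and 2733 against 3691 CPM, and Gata3 was at 99.2 against 104.5 CPM. Krt16, a keratin outside the list and named after its values were seen, was also lower, at 50.6 CPM (37.5 to 66.9) against 117 CPM, with 62.5 CPM in Ptprc-positive cells. Krt14 and other keratins share similar sequence, and the split of their reads was not checked.

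Several secreted or surface proteins outside these lists were also among the 15 genes of lowest ratio. Fgfbp1, which releases fibroblast growth factors from the matrix, was at 12.4 CPM against 133 CPM (log2 ratio -2.68). The serine protease Prss22 was at 20.7 against 158 CPM, Fxyd3, a regulator of the sodium pump, at 55.8 against 303 CPM, and complement C3 at 10.3 against 87.9 CPM. For Fxyd3, 20 of its 54 UMIs came from 1 low cell. The adhesion molecule Alcam was at 13.4 against 83.6 CPM and the secreted binding protein Igfbp7 at 67.2 against 256 CPM, with 23 of its UMIs in 1 low cell. Ly6c1, at 21.7 against 148 CPM, belongs to a family of similar copies and is uncertain for that reason. Ramp1, a receptor activity modifier, was at 11.4 against 69.2 CPM. All genes of this paragraph were lower in the low cells than in the positive cells. In Ptprc-positive cells Alcam was at 26.2 CPM, Ramp1 at 23.96 CPM and C3 at 69.96 CPM, each above the interval of the low cells. Fgfbp1, at 17.6 CPM, Ly6c1, at 24.7 CPM, Igfbp7, at 74.6 CPM, and Fxyd3, at 45.8 CPM, lay inside the intervals of the low cells (6.41 to 21.7, 13.4 to 33.2, 51.8 to 85.6 and 41.9 to 72.8). Prss22 was at 12.55 CPM there, just under the interval of the low cells (12.6 to 31.9). Leucocytes may express some of these genes themselves, so their levels do not decide whether the low cells held a gene above free RNA.

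The motif shown above for Epcam and Cldn4 was searched in the windows of the lower genes as well. It begins at -97 and -57 in a start of Cldn7, at -64 and -53 in Rab25, at -44 in Krt7 and at 32 in Cldn3, and it is absent from the windows of Krt14, Fxyd3 and Jup. Of the 37 lower genes 25 had a window and 8 of these held the motif (32%), against 425 of 2317 matched genes at 50 CPM or more (18.3%) and 6098 of 27025 genes of the whole promoter table (22.6%).

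**Figure D3:**
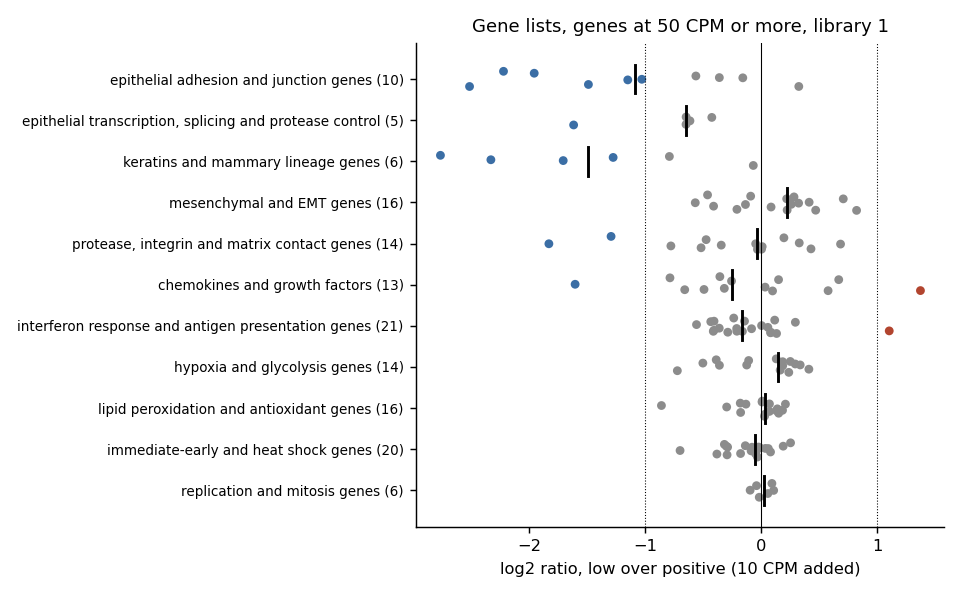
Log2 ratio of low over positive cells of library 1, after adding 10 CPM, for each gene of 11 lists at 50 CPM or more (number in brackets); bars are medians, dotted lines 2-fold, blue and red points genes past 2-fold lower and higher, and the vertical scatter carries no meaning. The medians of the keratin and junction lists are -1.49 and -1.09, over genes of which 1 of 6 and 6 of 10 reached 50 CPM in the positive cells alone.

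Serpine2 was the gene furthest above the positive cells. Its level was 479 CPM (437 to 525) in low cells and 81.3 CPM (78.7 to 83.8) in positive cells, 5.36-fold with 10 CPM added and a log2 ratio of 2.42. Cycling keratin cells held 52.9 CPM and Ptprc-positive cells 33.1 CPM, while collagen-high cells held 342 CPM. The part of free RNA in the Serpine2 level of the low cells was not tested. Cell by cell it ran from 0 to 5464 CPM, with a median of 0, an upper quartile of 359 CPM and 43 of 78 cells without a UMI. After thinning every cell to 5000 UMIs, 41.0% (30.0 to 52.7%) of the low cells and 12.8% of the positive cells held a UMI, against 5.42% (4.26 to 6.77%) of Ptprc-positive cells, whose median depth was 11508 UMIs. The 2 cells with the most Serpine2 held 95 and 85 of the 464 UMIs, 38.8% of all. Without the top cell the level was 394 CPM and the log2 ratio 2.15. Serpine2 thus marked a part of the low cells, and strongly in a few.

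The 4 other genes above the positive cells rested on fewer cells. Ccl2, a chemokine that attracts monocytes, was at 199 CPM (172 to 230) against 70.8 CPM, with 60 of 78 cells at 0 and 30 of 193 UMIs in 1 cell. Ptprc-positive cells held Ccl2 at 556 CPM and collagen-high cells at 883 CPM, and the part of free RNA in its level was not tested. After thinning, 19.2% (11.2 to 29.7%) of low cells, 13.4% of positive cells and 49.2% of Ptprc-positive cells held a Ccl2 UMI. Without thinning the share was 23.1% in low and 32.5% in positive cells. Il11, a cytokine of the interleukin 6 family, was at 70.3 CPM (54.6 to 89.1) against 25.5 CPM, and after thinning 26.9% of low cells and 7.52% of positive cells held a UMI, against 1.66% of Ptprc-positive cells. Cxcl11, an interferon-induced chemokine, was at 94.0 against 31.8 CPM, but 74 of its 91 UMIs came from 1 cell, and without that cell it was at 17.9 CPM, below the positive cells. Ifit1, an interferon-induced antiviral gene, was at 52.7 against 19.2 CPM with 35 of its 51 UMIs in 1 cell, and without that cell at 16.7 CPM, below the positive cells as well. Leaving out each gene's top cell in this way left 2 of the 5 higher genes past 2-fold, Serpine2 and Ccl2. Il11 was then at 59.9 CPM against 25.5 CPM, a log2 ratio of 0.98 in the same direction and just under 2-fold.

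**Figure D4:**
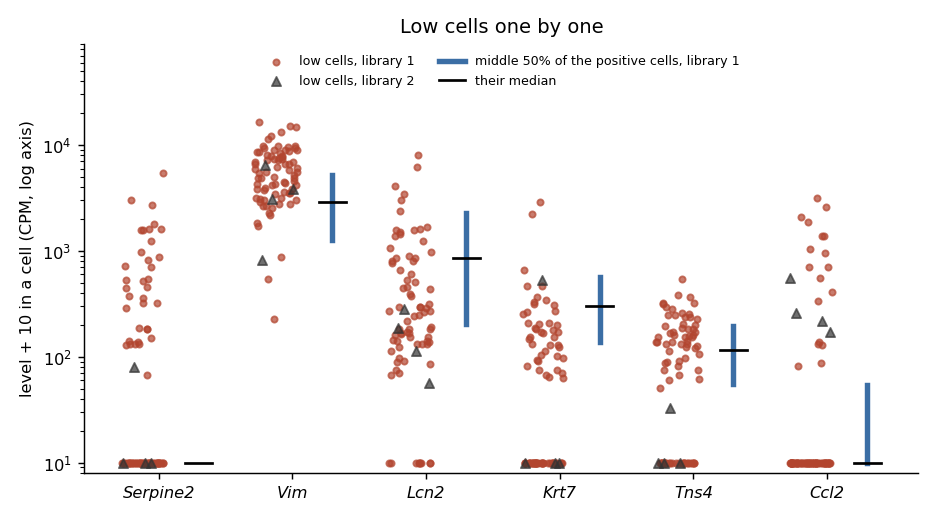
Level in each low cell (CPM with 10 CPM added, log axis), as red circles for the 78 cells of library 1 and dark triangles for the 4 cells of library 2, with the middle 50% (blue bar) and median (black line) of the 2473 positive cells of library 1 beside them. Serpine2 and Ccl2 are at 0 in 43 and 60 of the 78 cells and above 0 in the rest, in some with 1 or 2 UMIs, and most cells lie below the positive median for Krt7 and Lcn2.

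Of the mesenchymal and EMT genes none passed 2-fold. Of 16 genes at 50 CPM or more, 2 of them in the low cells alone, 10 had a ratio above 1 and 6 below, with a median log2 ratio of 0.22 against 0.0020 for all genes. Vim, the intermediate filament of mesenchymal cells, was at 6215 CPM (6059 to 6375) against 3803 CPM (3786 to 3820), a log2 ratio of 0.71. Per cell its median was 5466 CPM (217 to 16487) against 2883 CPM. Snai1, a repressor of epithelial genes, was at 61.0 CPM (46.4 to 78.6) against 30.1 CPM, a log2 ratio of 0.82, with 13 of its UMIs in 1 cell. Zeb2 and Twist1 were at 61.0 against 43.3 CPM and 82.7 against 69.4 CPM. Zeb1 was at 0 UMIs (up to 3.81 CPM) against 1.93 CPM, Snai2 and the cadherin Cdh2 were at 0 UMIs, and Twist2 was at 2.07 CPM against 0.987 CPM and 191.5 CPM in collagen-high cells. The receptor kinase Axl was at 132 against 92.8 CPM. Fn1 (fibronectin) went the other way at 1323 CPM (1251 to 1397) against 1763 CPM (1751 to 1774), and so did Itgb1 at 242 against 364 CPM, so the classical markers of EMT did not share a direction.

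Of 14 genes of the protease and matrix contact list 0 were higher and 2 lower, with a median log2 ratio of -0.04. Among the lower ones was the stromelysin Mmp3, at 53.7 against 146.5 CPM, with 17 of 52 UMIs of Mmp3 in 1 cell. The integrin chains Itgb4 and Itga3 were at 149 against 149 CPM and 132 against 171 CPM. Mmp9 was at 40.3 against 76.4 CPM, and 24 of its 39 UMIs came from 1 low cell, so its level in the other low cells was lower still.

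Of 13 genes of the list of chemokines and growth factors 1 was higher (Ccl2) and 1 lower, with a median log2 ratio of -0.26. The list does not hold Cxcl11 and Il11, which were higher as given above, nor the activin subunit gene Inhba, named after its values were seen, which was lower at 26.9 against 74.2 CPM. The lower gene of the list was Tslp, an epithelial cytokine that acts on dendritic and type 2 immune cells, at 94.0 CPM (75.7 to 115.5) against 307 CPM (302 to 312). The neutrophil chemokine Cxcl1 was at 618 against 874 CPM, the granulocyte factor Csf3 at 401 against 374 CPM, the macrophage factor Csf1 at 108.5 against 69.5 CPM and the EGF receptor ligand Hbegf at 567 against 730 CPM. Spp1 (osteopontin) was at 4275 against 5335 CPM. Cxcl10 was at 225 CPM against 138 CPM, with 60 of its 218 UMIs in 1 cell.

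Of 21 genes of the interferon and antigen presentation list 1 was higher, Ifit1 as above, and 0 were lower, with a median log2 ratio of -0.16. The class I genes H2-K1 and H2-D1 were at 2209 against 2701 CPM and 4277 against 4956 CPM, and B2m, their light chain, was at 1776 against 2057 CPM. Cd74, the class II invariant chain, was at 1685 CPM (1605 to 1769) against 2283 CPM in positive, 17964 CPM in Ptprc-positive and 448 CPM in collagen-high cells.

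Of 14 hypoxia and glycolysis genes none was past 2-fold, with a median log2 ratio of 0.15. Ldha (lactate dehydrogenase) was at 1542 against 1220 CPM, and Slc2a1, the glucose transporter, at 99.2 against 133 CPM. Of 20 immediate-early and heat shock genes none was past 2-fold either, with a median of -0.06, and Fos and Jun were at 2133 against 2255 CPM and 2750 against 2636 CPM. The 6 replication and mitosis genes above 50 CPM had a median of 0.02, in cells from which strongly cycling cells had been taken out by the choice.

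The treatment of the study acts by lipid peroxidation, and RSL3 blocks Gpx4, the enzyme that reduces lipid peroxides. Whether any low cell met it is not known, since no library is linked to a sample. Of 16 lipid peroxidation and antioxidant genes none was past 2-fold, with a median log2 ratio of 0.03. Gpx4 was at 588 CPM (541 to 638) against 536 CPM (530 to 543). Acsl4, which loads membranes with peroxidisable fatty acids, was at 106 against 133 CPM. The ferritin chain Fth1 was at 17251 against 15193 CPM, and the haem oxygenase Hmox1 was at 32.0 CPM (21.8 to 45.5) against 66.4 CPM, a log2 ratio of -0.86 with 15 of 31 UMIs in 1 cell.

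The positive cells showed how the genes changed with the amount of Epcam and Cldn4. Thinned to 5000 UMIs, they were ordered by the sum of Epcam and Cldn4 UMIs, with 249 cells at 0, 270 at 1, 207 at 2, 345 at 3 to 4, 712 at 5 to 9 and 690 at 10 and more. Serpine2 was at 275, 190, 123, 65.5, 19.9 and 7.83 CPM along these steps, and the 78 low cells, thinned alike, were at 344 CPM (288 to 407). Vim went from 6535 to 1962 CPM along the same steps, and the low cells, at 5964 CPM (5724 to 6212), lay below the first step and beside the second, which was at 5837 CPM. Krt19 went from 22.5 to 182 CPM and Cldn3 from 25.7 to 348 CPM, with the low cells at 7.69 and 17.9 CPM. Krt7 went from 133 to 647 CPM and the low cells were at 174 CPM (135 to 221). Tns4 changed less, from 151 CPM (130 to 174) in the first step to 110 CPM (99.6 to 122) in the last. In the low cells it was at 121 CPM (88.5 to 160). For Serpine2, Vim, Krt7, Krt19 and Cldn3 the low cells were thus nearer to the first steps of the positive cells than to the last. In summed UMIs they were not equal to the first step, where Serpine2, at 275 CPM, lay under the interval of the low cells. Krt19, at 22.5 CPM in that step, lay at the upper end of the interval of the low cells (1.59 to 22.5). By cell, 41.0% (30.0 to 52.7%) of the low cells and 31.3% (25.6 to 37.5%) of the first-step cells held Serpine2, and these intervals overlap. The first-step cells were deeper before thinning, at a median of 21276 against 11979 UMIs. Fn1 did not follow the steps, with the low cells at 1308 CPM and the steps between 1436 and 2068 CPM. Snai1 was at 64.1 CPM (41.5 to 94.6) in the low cells, 35.3 CPM (25.7 to 47.4) in the first step and 18.6 CPM in the last. Zeb2 and Axl went the other way against the first step, at 61.5 against 72.3 CPM and 94.9 against 129 CPM. For Snai1, Zeb2 and Axl the intervals of the low cells and the first step overlap.

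**Figure D5:**
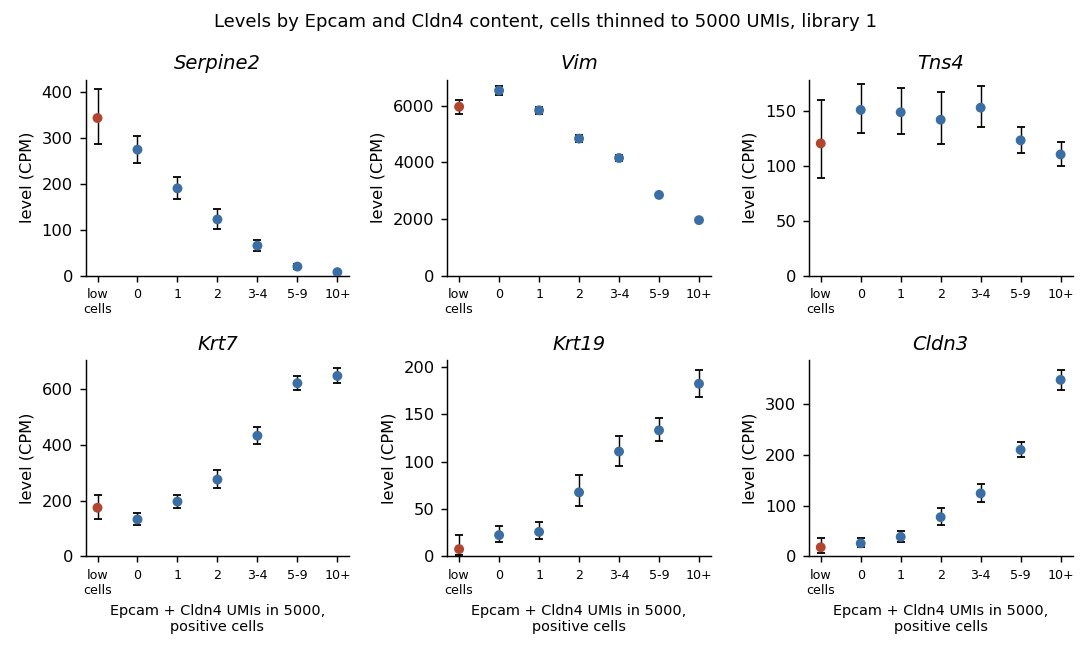
Level (CPM) of 6 genes in the 78 low cells (red) and in positive cells of library 1 grouped by the sum of Epcam and Cldn4 UMIs left after thinning to 5000 UMIs (blue), with exact 95% Poisson intervals. Serpine2 and Vim are lower and Krt7, Krt19 and Cldn3 higher toward cells rich in Epcam and Cldn4, Tns4 stays between 110 and 153 CPM in the blue groups, and for the genes other than Tns4 the low cells lie nearer to the first blue group than to the last.

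The edges of the choice were also examined without thinning. Cells with 1 UMI of Epcam or Cldn4 (110 cells) had Serpine2 at 321 CPM, Vim at 6403 CPM and Krt7 at 111 CPM, and cells with 2 UMIs (111 cells) had 324, 6525 and 108 CPM, against 479, 6215 and 149 CPM in the low cells. At the keratin limit, 18 cells with 0.1 to under 0.2% keratin UMIs had Serpine2 at 729 CPM, 23 low cells with 0.2 to under 0.3% had 424 CPM and the 55 low cells with more had 502 CPM, so the values did not run one way. At the depth limit, 41 cells of 2000 to under 5000 UMIs had Serpine2 at 74.7 CPM and Krt7 at 381 CPM, the 32 low cells of 5000 to under 10000 UMIs had 192 and 201 CPM, and the 46 deeper low cells had 568 and 133 CPM. Serpine2 was thus higher and Krt7 lower in the deeper low cells, and in these values the shallow low cells stand nearer to the positive cells.

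The low cells differed among themselves. Among genes with a mean of at least 0.5 UMIs per cell after thinning to 5000 UMIs, the variance was largest against the mean (Fano factor) for the nuclear RNA Malat1 at 82.0, followed by Fth1 at 33.7, S100a6 at 30.7, the protease inhibitor Slpi at 30.1, Spp1 at 25.3, Cxcl10 at 16.3, Klf2 at 15.6, Jun at 15.0, the metallothionein Mt1 at 14.7 and Lcn2 at 13.2. A Fano factor of 1 is what counting alone gives.

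The 35 low cells with a Serpine2 UMI differed from the 43 without in more than that gene, for genes chosen after their values were seen. The cells with Serpine2 held a median of 13871 UMIs and those without 9779 UMIs. Lcn2 was at 1041 CPM (952 to 1136) with Serpine2 and 396 CPM (342 to 456) without, and Fn1 was at 1936 CPM against 718 CPM. In the opposite direction, S100a4 was at 435 CPM (378 to 498) with and 1175 CPM (1081 to 1276) without, Krt7 at 72.9 against 224 CPM, Ly6a, of the same family as Ly6c1, at 112 against 392 CPM and Stmn1, a microtubule regulator, at 54.1 against 197 CPM. Krt8 and Krt18 were close, at 1734 against 1910 CPM and 2592 against 2872 CPM. The 593 positive cells with Serpine2 and the 1880 without gave 339 against 573 CPM for Krt7, 417 against 795 CPM for Ly6a, 608 against 724 CPM for S100a4 and 106 against 122 CPM for Stmn1, the same direction, but 1619 against 1800 CPM for Lcn2 and 1769 against 1760 CPM for Fn1. As ratios, the gaps in all 6 genes were wider among the low cells than among the positive cells, and that difference was not tested. In CPM the gaps of Krt7 and Ly6a were wider among the positive cells. Since these genes were chosen after their values were seen, the wider ratios among the low cells can follow from the choice. Other genes did not all share this. Cldn3 was at 27.1 with against 22.6 CPM without Serpine2 in low cells, and at 101 against 222 CPM in positive cells. Vim turned direction, at 5432 against 6987 CPM in low cells and 4640 against 3491 CPM in positive cells.

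The 4 low cells of library 2 entered none of the gene comparisons. They held 7343, 9640, 28272 and 43183 UMIs, with keratin shares of 0.313%, 0.207%, 0.205% and 0.243%, all below the median of the low cells of library 1. Serpine2 came to 0, 0, 0 and 3 UMIs. That is 33.9 CPM (7.00 to 99.1) against 37.7 CPM in the 77 positive cells of that library, so it was not higher there. Vim was at 2782 CPM (2445 to 3152) against 3449 CPM in these positive cells, lower where in library 1 it was higher. Tns4 came to 0, 0, 0 and 1 UMIs, which is 11.3 CPM (0.286 to 63.0) against 126 CPM in the 77 positive cells and 15.4 CPM in the Ptprc-positive cells. Of the genes of the choice, Krt18 was at 882 against 1680 CPM and Col3a1 at 905 against 568 CPM. The fibroblast gene Dcn (decorin) was at 5, 0, 6 and 0 UMIs, which is 124 CPM, beside 85.9 CPM in the positive and 116 CPM in the Ptprc-positive cells of library 2. The neutrophil gene S100a8 was at 3, 0, 11 and 8 UMIs, or 249 CPM, against 90.0 CPM in the positive and 799 CPM in the Ptprc-positive cells. In library 1 only 2 UMIs of Dcn were found in all 78 cells. Of the 4 cells 1 was among the highest 5% of doublet scores. The Tns4 level of these 4 cells lay below the positive cells and beside the Ptprc-positive cells. Wfdc2 was at 14, 74, 7 and 12 UMIs, or 1210 CPM (992 to 1462), against 2300 CPM in the positive and 204 CPM in the Ptprc-positive cells, with most UMIs in 1 cell. Gata3 came to 12 UMIs, or 136 CPM (70.1 to 237), against 131 CPM in the positive and 33.8 CPM in the Ptprc-positive cells. Wfdc2 and Gata3 thus lay above the Ptprc-positive cells, and Tns4, with its 1 UMI, did not.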

How the data were processed

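UMI counts of 55450 genes in 33064 barcodes were deposited by the authors in 1 matrix, as whole numbers from Cell Ranger with no scaling per cell. The design text names version 3.0.2, the matrix header 6.1.2 and the submitters' processing notes 2.1.1 with the build mm10. Which annotation was counted against is not stated, and all gene identifiers were found in GENCODE M21. The design text speaks of 15603 cells. Its limits of 300 genes and 15% mitochondrial UMIs left 32133 barcodes here. Libraries 1 to 4 held 108646352, 81369540, 69255999 and 96493208 UMIs. UMIs of a class were summed and scaled to 1000000 (CPM), and ratios were taken with 10 CPM added, for genes at 50 CPM or more, within a library with 50 cells of each class. Thinning drew 5000 UMIs per cell without replacement (seed 1, drawn anew for each set of cells). Doublets were kept; Scrublet (scanpy 1.11.5) scores served an alternative. The ratio step was checked on simulated counts. Named were the genes of the choice, its markers, members of 20 lists and the 15 genes of largest ratio in each direction. Of the list symbols 2 had no row and 2 had several rows, and these were left out. The low cells, the lists and the tests were chosen with earlier results of these data known. Python 3.11.15, numpy 2.4.6, scipy 1.17.1 and pandas 2.3.3 were used. Some genes named by these rules are not reported here.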

Additional observations from a re-analysis of the deposited data

Results flagged for a closer look

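The 4 low cells of library 2, which the gene comparison does not use, held Dcn at 124 CPM (11 UMIs, 5 and 6 of them in 2 cells). Its interval, 62.1 to 223 CPM, holds the 85.9 CPM of the 77 positive cells of that library and the 116 CPM of its Ptprc-positive cells. The level lay below the 5453 CPM of the collagen-high cells. What flagged it was a fibroblast transcript in tumour-labelled cells outside the comparison, and its source was not tested.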

How the results depend on the processing

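The number of low cells, 82, became 48 and 9 with minimum depths of 10000 and 20000 UMIs, 28 and 2 with keratin shares of at least 0.5% and 1%, and 196 when 1 UMI of Epcam and Cldn4 was allowed. Leaving out each library in turn gave 4 to 82 cells, 4 without library 1. The 5 higher and 37 lower genes became 2 and 17 with 50 CPM added, 9 and 65 with no minimum level, 8 and 60 at 20 CPM, 1 and 9 at 200 CPM, and 10 and 56 after thinning to 5000 UMIs. Alternatives chosen after seeing the data gave 2 higher genes without each gene's top cell, 23 and 91 with at least 0.5% keratin (28 low cells), 19 and 80 against positive cells with at least 10 Epcam and Cldn4 UMIs in 5000, and 2 and 16 against those with at most 4. Leaving out library 2, 3 or 4 gave 5 and 37 each time, which was fixed in advance because the comparison uses library 1 only. Serpine2 stayed past 2-fold in all 21 settings, with log2 ratios from 1.51 to 4.48, and Vim passed it in 2, from 0.20 to 1.62. Some of these settings could not move a ratio, such as leaving out library 2, 3 or 4 or changing the minimum level. Cxcl11 reversed to -0.58 without its top cell and to -1.44 with at least 0.5% keratin. Ifit1 reversed to -0.13 without its top cell, to -0.90 from 10000 UMIs and to -0.93 with at least 0.5% keratin. The regulator list had 2 lower genes after thinning, and the interferon list 0 higher genes in sums over all libraries. For the causes of these shifts no test was made. Among all 82 cells, thinned in another random draw than that of the report, the share with Serpine2 was 40.2% and became 26.8% when 2 UMIs were asked for, that with Tns4 43.9%, then 65.9% unthinned and 14.6% at 2 UMIs, that with Krt7 36.6%, then 53.7% and 17.1%, that with Krt19 2.44%, then 9.76% and 0%, and that with Vim 98.8%, then 100% unthinned. The gene comparison could not be made with 50 cells from 10000 or 20000 UMIs, at 0.5% or 1% keratin, or without library 1, so it rests on that library alone. No paired analysis was possible because no library is linked to a sample and no test between groups was run.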
